A study of Mus musculus with 6 samples.

Results

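Border-associated macrophages are the macrophages at the edges of the brain, in the meninges, around blood vessels and in the choroid plexus. They were read here through 10 marker genes, Mrc1, Ms4a7, F13a1, Cd163, Lyve1, Cbr2, Dab2, Folr2, Clec12a and Colec12, in RNA of sorted microglia. The genes were chosen by name as known markers of these cells, and all 10 were found by symbol among the 48587 genes of the deposited count table. The 6 libraries came from microglia of C57BL/6 mice at postnatal day 42, sorted by flow cytometry at about 1000 cells a sample, with 3 libraries from wild-type mice and 3 from Lyl1 knockout mice. Lyl1 encodes a transcription factor of the basic helix-loop-helix class that acts in haematopoiesis. The labels give neither the sorting gate nor the structure of the knockout allele, and they do not say whether the samples of a genotype came from separate animals, so the p-values below measure only how far these samples lie apart, which may be technical.

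Microglia and border-associated macrophages both depend on the receptor Csf1r and share genes such as Cx3cr1, Aif1 and Itgam, so a sort on shared surface proteins can collect both. Microglia are told apart by P2ry12, Tmem119 and Sall1, border-associated macrophages by scavenger and lectin receptors such as Mrc1 (CD206), Cd163 and Lyve1. The markers studied here therefore serve as a reading of how much RNA of the second cell type entered a microglia sort. In bulk RNA, fewer cells of a type and less RNA per cell cannot be told apart, and no library of border-associated macrophages was analysed here that could turn reads into a share of cells.

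Total counts ran from 12753945 to 27378614 reads and the genes with at least 1 read from 12827 to 15652 per library. Wild-type library 3 and knockout libraries 2 and 3 had the most genes, 15652, 14923 and 15531, against 13045 and 12827 in wild-type libraries 1 and 2 and 13085 in knockout library 1. The targeted gene Lyl1 had 683, 1399 and 839 reads in wild-type libraries 1 to 3 and 205, 237 and 410 in knockout libraries 1 to 3, lower in every knockout library but not absent. Its log2 fold change, knockout over wild type, was -2.14 (standard error 0.98). The unadjusted p was 0.0609 and the adjusted p = 0.9999 (edgeR quasi-likelihood test). The test thus did not call even the targeted gene, so a gene left uncalled below is not shown to be unchanged. Where a gene has 0 reads, up to 3 reads remain possible, equal to 0.103 to 0.263 TMM-scaled CPM (reads adjusted for the size of each library) depending on the library, and this limit covers counting error only. All 60 values of 10 microglia markers lay above 3 reads, and their summed level was 37263 to 40300 CPM in the wild-type and 35310 to 39611 CPM in the knockout libraries. The labelled cell type thus carried its defining markers in all 6 libraries.

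Most of the border-associated macrophage markers were at or near 0. Of the 60 values of 10 genes in 6 libraries, 34 were 0, another 14 were 1 to 3 reads and 12 were above 3 reads. The genes F13a1, Cd163, Lyve1, Cbr2, Folr2, Clec12a and Colec12, 7 of the 10, never exceeded 2 reads in a library and together had 15 reads in the 6 libraries. Mrc1, Dab2 and Ms4a7 were the 3 genes above 3 reads in any library, with 1886, 2742 and 115 reads in all, and Mrc1 and Dab2 held 97.3% of the reads of the 10 genes. Among 21254 protein-coding genes of the table, 44.8% had at most 3 reads in every library and 32.5% had none.

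**Figure D1:**
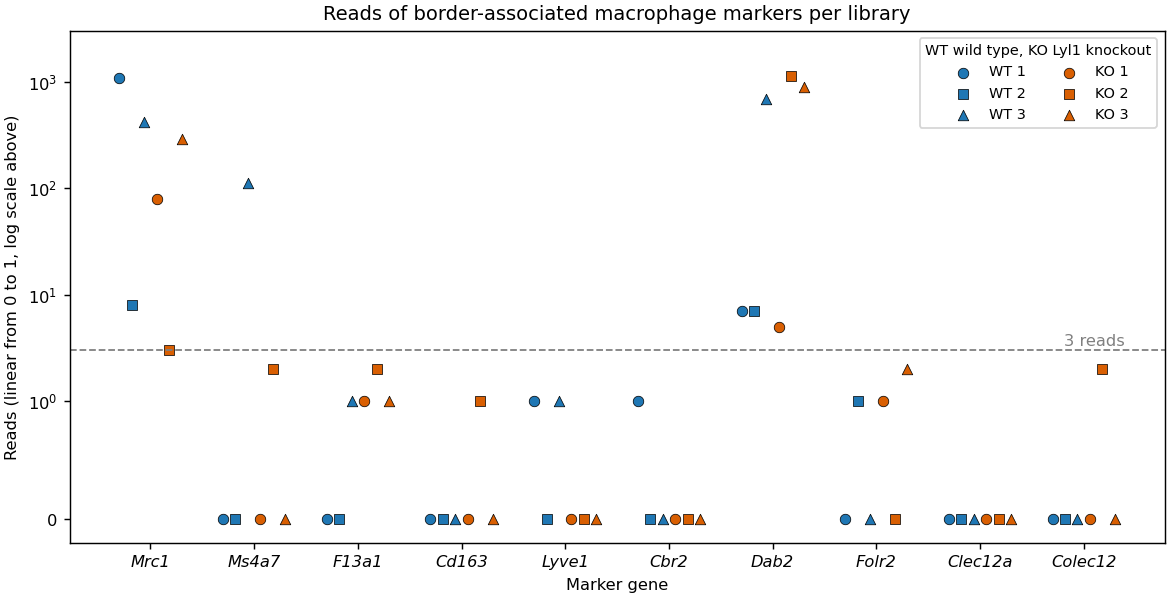
Reads of each of the 10 markers (x axis) in each library, on a y axis that is linear from 0 to 1 read and logarithmic above; circles, squares and triangles are replicates 1, 2 and 3, blue for wild type (WT) and orange for Lyl1 knockout (KO). Mrc1 and Dab2 reach 1082 and 1128 reads, Ms4a7 reaches 113 in 1 library, and the other 7 genes stay at 2 reads or fewer, below the dashed line at 3 reads.

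Lyl1-type factors bind E-boxes, the letters CANNTG, as dimers, and PU.1, the main macrophage factor, binds purine-rich boxes that often hold GAGGAA. The 250 bases before the start of Mrc1 and Dab2 are shown because these are the members with a measurable level that the genotype test could use. The sequences are from RefSeq on GRCm38.p6, 5′ to 3′ on the strand of the gene, with every CANNTG in capitals, and 8 of the 10 members had an entry. The stretch of Mrc1 is chr2:14229164-14229413 (plus strand), those of Dab2 are chr15:6299539-6299788 before its first start and chr15:6386498-6386747 before its second (plus strand). Starts are those of RefSeq, and the last 22 bases of the Mrc1 stretch fall inside the GENCODE M21 model of the gene.
Mrc1: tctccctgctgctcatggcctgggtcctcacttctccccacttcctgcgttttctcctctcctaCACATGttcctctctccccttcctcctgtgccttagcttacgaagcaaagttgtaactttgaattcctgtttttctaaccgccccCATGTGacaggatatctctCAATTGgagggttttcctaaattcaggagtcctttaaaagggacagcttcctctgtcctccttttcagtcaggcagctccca
Dab2, first start: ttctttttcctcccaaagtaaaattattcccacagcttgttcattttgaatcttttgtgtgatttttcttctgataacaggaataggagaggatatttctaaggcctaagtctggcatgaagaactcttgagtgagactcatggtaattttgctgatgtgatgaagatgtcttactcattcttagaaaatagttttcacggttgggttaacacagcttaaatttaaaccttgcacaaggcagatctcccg
Dab2, second start: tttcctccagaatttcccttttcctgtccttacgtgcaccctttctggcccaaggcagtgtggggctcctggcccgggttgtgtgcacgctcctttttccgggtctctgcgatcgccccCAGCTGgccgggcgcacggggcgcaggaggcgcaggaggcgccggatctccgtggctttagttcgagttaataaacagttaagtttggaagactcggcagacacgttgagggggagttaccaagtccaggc

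Mrc1 held 3 matches to CANNTG, Dab2 held 0 before its first start and 1 before its second. At least 1 match stood in 66.2% of 32841 RefSeq promoters read over the same 250 bases. The second Dab2 sequence also held the 1 match to CAGCTG, a subset of CANNTG found in 13% of promoters. GAGGAA, read on both strands like the other motifs, had 3 matches in Mrc1 and 1 in each Dab2 sequence and stood in 23.3% of promoters. A match describes these letters and is not a measured binding site.

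Among the receptors, Mrc1 was the sole one above 3 reads. It encodes the macrophage mannose receptor, which takes up glycoproteins ending in mannose, and it lies on GRCm38 chromosome 2 from 14229392 to 14332057 on the plus strand (ENSMUSG00000026712.3, GENCODE M21). Mrc1 had 1082, 8 and 421 reads in wild-type libraries 1 to 3 and 79, 3 and 293 in knockout libraries 1 to 3. In TMM-scaled CPM its level was 94.8, 0.316 and 19.9 in wild type and 3.46, 0.152 and 10.1 in knockout. Wild-type library 1 was the highest, wild-type library 2 and knockout library 2 were near 0, and the genotypes overlapped.

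Mrc1 averaged 38.3 ± 49.8 CPM over the wild-type and 4.57 ± 5.07 CPM over the knockout libraries (SD, n = 3 each), an 8.39-fold difference of means. The fitted log2 fold change, knockout over wild type, was -3.06 (standard error 2.14), and edgeR's quasi-likelihood test gave an unadjusted p of 0.191 and adjusted p = 0.9999. An exact 2-sided permutation test of the means gave p = 0.3, where 0.1 is the smallest that 3 against 3 allow. Wild-type library 1 alone held 73.6% of the Mrc1 CPM of the 6 libraries. Leaving it out moved the log2 fold change to -1.14 (standard error 2.46). The coefficient of variation of Mrc1 was 130% in wild type and 111% in knockout, against medians of 98.1% and 67.5% over the 4476 tested genes at 10 to 50 CPM.

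Cd163, the haptoglobin-haemoglobin scavenger receptor, had 1 read, in knockout library 2. Lyve1, a hyaluronan receptor of perivascular macrophages and lymphatic endothelium, had 1 read in each of wild-type libraries 1 and 3 and 0 elsewhere. Colec12, a collectin-type scavenger receptor, had 2 reads in knockout library 2 and 0 in the others. Clec12a, an inhibitory C-type lectin receptor of myeloid cells, had 0 reads in all 6 libraries. Wild-type library 1, with the most Mrc1 reads of the 6, thus had 1 read of Lyve1 and none of Cd163, Colec12 or Clec12a.

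Folr2, the folate receptor of macrophages, had 1 read in wild-type library 2, 1 in knockout library 1 and 2 in knockout library 3. Its reading is the weakest of the 10, since 52.6% of its 1585 distinct stretches of 50 bases, the read length, also occur in transcripts of Gm10602, a gene model on the opposite strand. Gm10602 had 60 reads in wild-type library 3, 118 in knockout library 1, 59 in knockout library 3 and 0 in the others. Reads from the shared part could have been counted for either gene or lost to both, and which of these happened was not tested. For Cbr2 the shared part was 12.1%, with the gene model Gm11771, at 0 reads in all libraries. For the other 8 members the shared part was at most 4.33%, and for Mrc1 and Lyve1 it was 0%.

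Dab2 encodes a clathrin adaptor that carries lipoprotein receptors and integrins into endocytic vesicles (ENSMUSG00000022150.16, chromosome 15, 6299788 to 6440712, plus strand). It had 7, 7 and 697 reads in wild-type libraries 1 to 3 and 5, 1128 and 898 in knockout libraries 1 to 3. In CPM that was 0.613, 0.277 and 33 in wild type and 0.219, 57 and 31 in knockout. Each genotype held libraries near 0 and libraries above 30 CPM, so the genotypes overlapped. The 3 libraries with Dab2 were also the 3 with the most genes detected, which a fit with genes detected as a covariate takes up below.

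Dab2 averaged 11.3 ± 18.8 CPM over the wild-type and 29.4 ± 28.4 CPM over the knockout libraries (SD, n = 3 each). Its log2 fold change of 1.38 (standard error 2.23) came at an unadjusted p of 0.554 and adjusted p = 0.9999 (edgeR quasi-likelihood test), where the exact permutation p was 0.7. With genes detected as a covariate it was 0.85 (standard error 1.94). Without wild-type library 3 it was 6.05 (standard error 2.72, edgeR adjusted p = 0.4577), and without knockout library 2 it was 0.47.

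Ms4a7, a membrane-spanning protein of the MS4A family used to separate border-associated macrophages from microglia, was seen in 1 library (ENSMUSG00000024672.11, chromosome 19, 11321039 to 11336146, minus strand). It had 0, 0 and 113 reads in wild-type libraries 1 to 3 and 0, 2 and 0 in knockout libraries 1 to 3, so wild-type library 3 stood at 5.35 CPM and knockout library 2 at 0.101 CPM. The exact permutation test gave p = 1. With nearly all reads in 1 library, every split of the libraries gives nearly the same difference, so this test cannot inform on genotype. The gene did not pass the filter on low counts. The same pattern, at least 100 reads in wild-type library 3 and at most 3 in each other library, was found for 101 of 21254 protein-coding genes (0.475%), and 394 (1.85%) had it in some library. Mrc1 and Dab2 both had more than 10 reads in wild-type library 3 and in knockout library 3, and Ms4a7 only in the former.

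**Figure D2:**
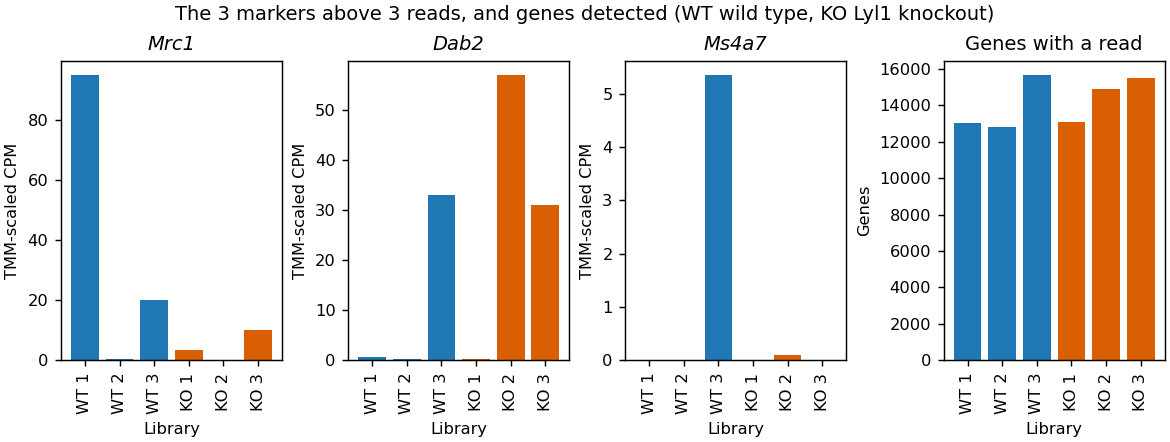
TMM-scaled CPM of Mrc1, Dab2 and Ms4a7 and the number of genes with at least 1 read (y axes) in each library (x axis), 1 bar per library, blue for wild type (WT) and orange for Lyl1 knockout (KO). Mrc1 is highest in WT 1 at 94.8 CPM, Dab2 is at 31 to 57 CPM in WT 3, KO 2 and KO 3, and Ms4a7 is at 5.35 CPM in WT 3.

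The enzymes of the panel gave no level above the limit of a zero count. F13a1, the catalytic subunit of coagulation factor XIII, had 1 read in wild-type library 3 and 1, 2 and 1 reads in knockout libraries 1 to 3. Cbr2, a carbonyl reductase, had 1 read in wild-type library 1 and 0 elsewhere. These 7 genes lie apart in the genome, Cd163 and Clec12a on chromosome 6, Lyve1 and Folr2 on 7, Cbr2 on 11, F13a1 on 13 and Colec12 on 18. At this depth no difference between the genotypes was detectable for the 7 genes at 2 reads or fewer.

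Per kilobase of annotated exon, the mean level over the 6 libraries was 3.37 CPM for Mrc1, 2.77 for Dab2 and 0.204 for Ms4a7. The next in order was Folr2 at 0.0164. On the same scale the microglial receptor P2ry12 stood at 2840, the microglial membrane protein Tmem119 at 2130 and Csf1r at 1929. Mrc1 and Dab2 did not differ beyond their spread between libraries, which ran from 0.0238 to 14.9 CPM per kilobase for Mrc1.

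The 10 markers were next summed and set against the microglia of the same library, which needs no scaling. Per 1000 reads of the 10 microglia markers there were 2.43, 0.0157 and 1.57 reads of the panel in wild-type libraries 1 to 3 and 0.095, 1.63 and 1.12 in knockout libraries 1 to 3. Wild-type library 2 and knockout library 1 were the low ones, and each genotype had 1 low library and a pair of high ones. The high libraries did not share 1 source gene. Wild-type library 1 had 1082 reads of Mrc1 and 7 of Dab2, and knockout library 2 had 3 and 1128. Wild-type library 3 had 421 and 697, and knockout library 3 had 293 and 898. Similar sums therefore do not mean a similar make-up of the panel. The means were 1.34 ± 1.23 in wild type and 0.95 ± 0.782 in knockout (SD, n = 3 each). The summed level in CPM was 95.5, 0.633 and 58.3 in wild type and 3.76, 57.5 and 41.2 in knockout. The log2 ratio of its means, knockout over wild type, was -0.59, against a spread between libraries of 3.20 (SD of log2 levels within genotypes). It was 0.22 without wild-type library 1 and 1.17 without Mrc1, so its sign rested on that library and that gene.

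**Figure D3:**
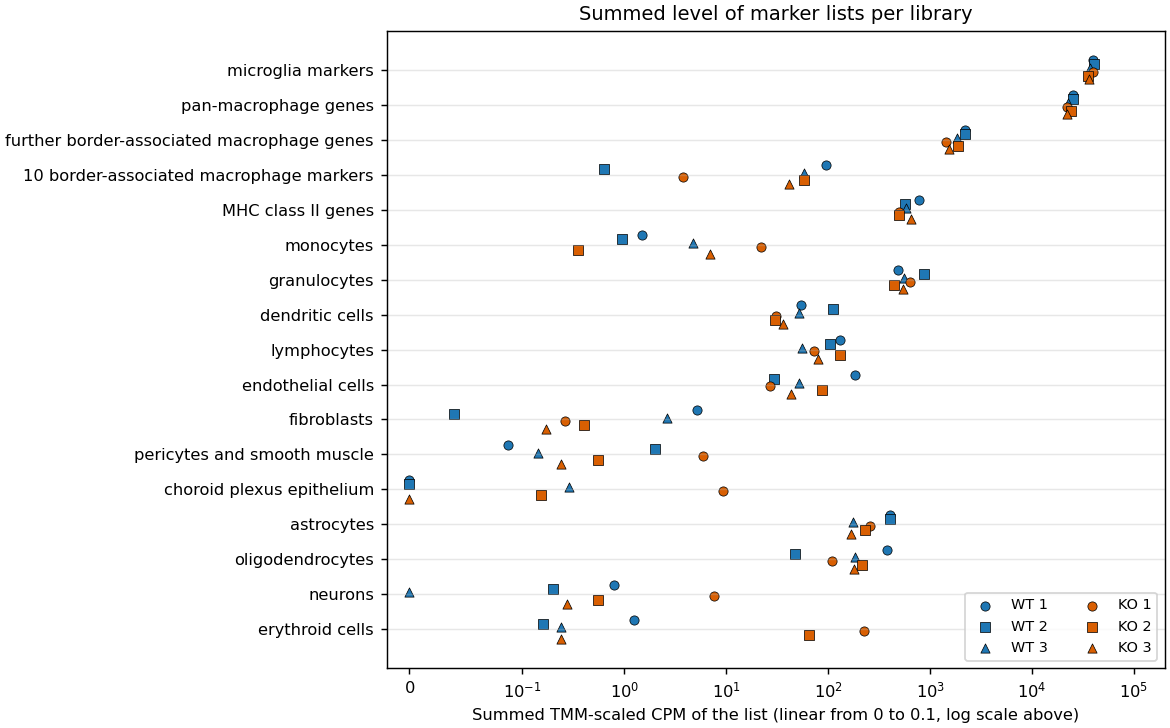
Summed TMM-scaled CPM (x axis, linear from 0 to 0.1 and logarithmic above) of the 10 markers and of lists for other cell types (y axis), 1 point per library, blue for wild type (WT) and orange for Lyl1 knockout (KO). The 10 border-associated macrophage markers spread from 0.633 to 95.5 CPM, while the microglia markers stay between 35310 and 40300 CPM.

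Across all 10394 genes tested, edgeR called 0% higher or lower in knockout, 2.84% had an unadjusted p under 0.05 and 11.2% had genotypes that did not overlap. Of the 10 markers, Mrc1 and Dab2 passed the filter on low counts. Neither was called by edgeR, DESeq2 or limma-voom, neither had an unadjusted p under 0.05 in any setting tried, and both overlapped between genotypes. Over the settings the adjusted p ran from 0.6632 to 1 for Mrc1 and from 0.4577 to 1 for Dab2. Mrc1 kept a negative and Dab2 a positive log2 fold change in all 18 settings, which share most of their libraries.

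**Figure D4:**
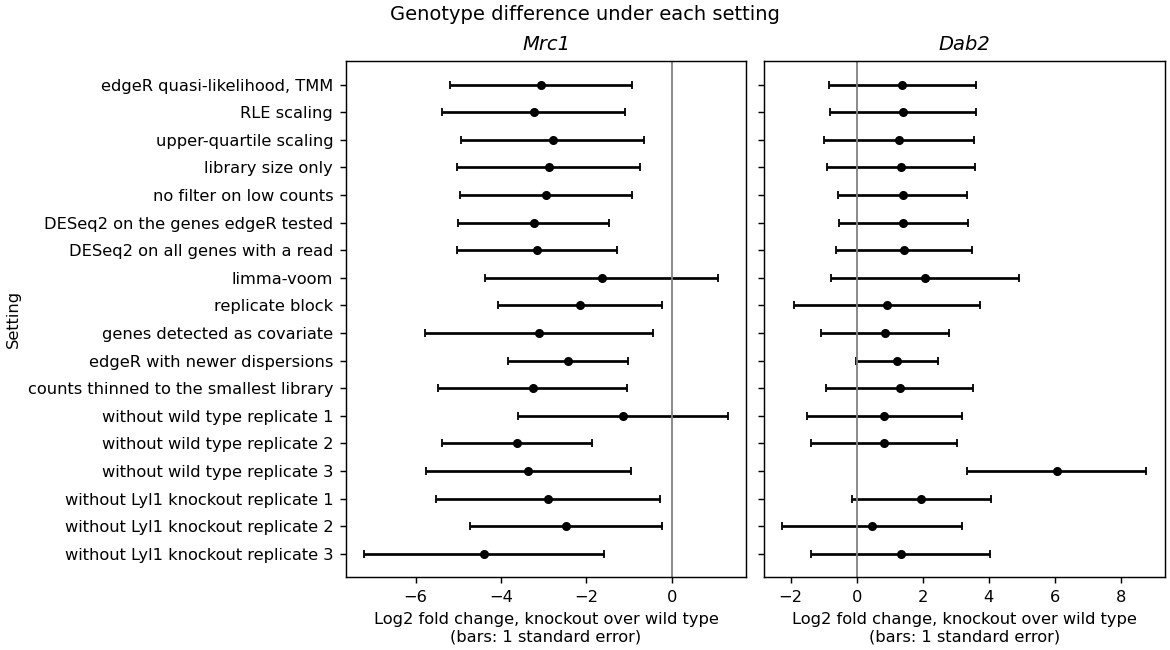
Log2 fold change of Mrc1 and Dab2, knockout over wild type (x axes), under each setting (y axis); points are the fitted values and bars 1 standard error. Mrc1 runs from -4.40 to -1.14 and Dab2 from 0.47 to 6.05, the last without wild-type replicate 3.

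Of the 4476 tested genes at 10 to 50 CPM, 60.5% had at least 100 reads in a library and at most 10 in another, as Mrc1 and Dab2 did. Read within a genotype, the share was 50.6% among the wild-type and 24.3% among the knockout libraries. Of 472 tested genes with at least 100 reads in 3 libraries and at most 10 in the other 3, 142 (30.1%) were high in the same libraries as Dab2.

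Genes with the nearest profiles over the 6 libraries were ranked among 8123 genes at a mean of 10 CPM or more by the share of CPM that would have to move between libraries. For the summed markers these were Blcap (3.7%), the gene model Gm44667 (5.87%), Ap3m2, a subunit of an adaptor complex (6.21%), Rasa1, a Ras GTPase activator (6.67%), and Cnr2, the cannabinoid receptor of immune cells (6.91%), against a median of 39.3%. For Mrc1 and Dab2 alone, added after values were seen, the nearest were Mospd2 (2.16%) and Bivm (2.22%). Rps13, a ribosomal protein gene, was also near Mrc1 (3.89%), with 136, 0.198 and 21.4 CPM in wild-type libraries 1 to 3 and 4.6, 0.152 and 17.7 CPM in knockout libraries 1 to 3. Many-copy genes such as Rps13 have processed copies elsewhere, so its count is uncertain.

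**Figure D5:**
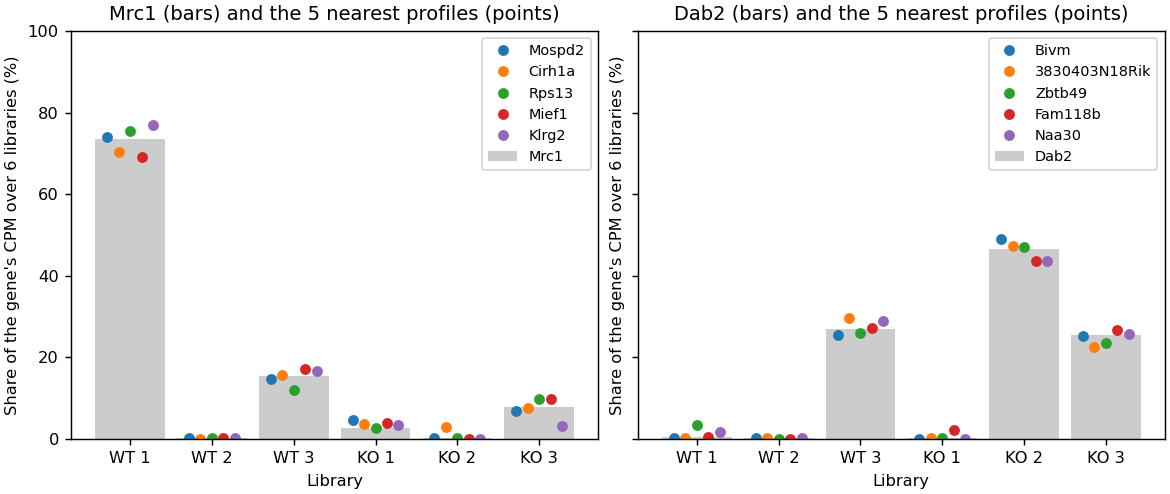
Share of each gene's CPM over the 6 libraries (y axis, percent) in each library (x axis); grey bars are Mrc1 or Dab2 and coloured points the 5 genes with the nearest profile. Mrc1 has 73.6% of its CPM in WT 1 and Dab2 46.7% in KO 2, and the points lie close to the bars.

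A further list of 24 genes known from border-associated macrophages was uneven. Of these 24, 8 had more than 3 reads in all 6 libraries, 10 never had more than 3 and 7 had none at all, among them the lectins Clec10a and Clec4n and the lectins Cd209b, Cd209d, Cd209f and Cd209g. The abundant ones included Hpgd, a prostaglandin-degrading enzyme that microglia also make, with means of 926 ± 182 CPM (wild type) and 725 ± 123 CPM (knockout; SD, n = 3 each, here and below). Stab1, a scavenger receptor, averaged 396 ± 29 and 290 ± 117 CPM, and Ms4a6b, a relative of Ms4a7, 166 ± 34.5 and 134 ± 22.1 CPM. Gas6, a ligand of the TAM receptors, was at 374 ± 138 and 171 ± 57.4 CPM (unadjusted p = 0.0266, edgeR adjusted p = 0.9999). In wild-type library 2 the 10 markers summed to 0.633 CPM. Hpgd, Stab1, Ms4a6b and Gas6 were at 1015, 428, 160 and 458 CPM there. In knockout library 1, where the 10 markers summed to 3.76 CPM, they were at 799, 172, 121 and 108 CPM. Stab1 and Gas6 had their lowest levels of the 6 libraries there. Which cells the reads of Hpgd, Stab1, Ms4a6b and Gas6 came from was not tested. Of the 11 tested genes of this list 0 were called, and Gas6 was the 1 with an unadjusted p under 0.05. Ccl24, a chemokine named after its values were seen, was read 2, 1 and 298 times in the wild-type libraries and 507, 587 and 783 times in the knockout libraries, with no overlap of levels (edgeR adjusted p = 0.9999). Of the 11, 6 had a positive and 5 a negative log2 fold change. The list's median log2 fold change was 0.05, and that of all genes tested was -0.03.

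Ccr1, a chemokine receptor of that list, had 9, 4 and 2102 reads in wild-type libraries 1 to 3 and 736, 2044 and 3651 in knockout libraries 1 to 3. It was low in the 2 wild-type libraries that were also low in Dab2, but not in knockout library 1. Named after their values were seen, Pf4, the platelet factor 4 chemokine, had 73 reads in wild-type library 3 and at most 3 elsewhere, and Siglec1, the sialoadhesin of tissue macrophages, had 168 reads in knockout library 3 and 0 elsewhere. Cd5l, a secreted protein of tissue macrophages, had 164 reads in wild-type library 3 and 0 elsewhere, the same library as the Ms4a7 reads. That library alone was high for 101 of 21254 protein-coding genes (0.475%), by the rule given for Ms4a7. Among them was Mog of the oligodendrocyte list, with 156 reads there and 0 elsewhere. The markers Cd163, Folr2 and Clec12a had 0 reads in wild-type library 3.

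Among lectins and scavenger receptors related to the markers, 8 of 13 never had more than 3 reads. Mrc2, the sister receptor of Mrc1 that takes up collagen, averaged 59.5 ± 36.2 CPM (wild type) and 4.72 ± 8.09 CPM (knockout), with no overlap (edgeR adjusted p = 0.9999). Clec7a, the beta-glucan receptor dectin-1, was read 0, 0 and 638 times in the wild-type libraries and 789, 0 and 1854 times in the knockout libraries. Of the MS4A relatives, Ms4a6d was present in every library at 207 ± 75.9 and 196 ± 58 CPM. Ms4a6c was read 0, 2211 and 997 times in the wild-type libraries and 392, 233 and 279 times in the knockout libraries. Ms4a4a, Ms4a8a, Ms4a14 and Ms4a15 had 0 reads in all libraries.

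Genes that work with the markers held both even and uneven members. Of 8 genes of haemoglobin and haem handling, the pathway that Cd163 feeds, 6 were tested and 0 called. The iron exporter Slc40a1 averaged 196 ± 120 CPM (wild type) and 263 ± 52.2 CPM (knockout), and the scavenging receptor Lrp1 581 ± 172 and 512 ± 56.8 CPM. Others of the list, named after their values were seen, differed sharply between libraries. Hmox1, the haem oxygenase, was read 9, 16 and 649 times in the wild-type libraries and 1780, 1598 and 987 times in the knockout libraries, with no overlap of levels (edgeR adjusted p = 0.9999). The haem exporter Flvcr1, listed as Mfsd7b, was read 2, 1 and 468 times in the wild-type libraries and 0, 101 and 374 times in the knockout libraries, and Hpx, the haem carrier hemopexin, had 589 reads in knockout library 1 and at most 1 elsewhere. Of 9 genes of hyaluronan and folate handling, 5 were tested and 0 called. The proton-coupled folate carrier Slc46a1 was at 273 ± 93.6 and 196 ± 40.6 CPM and the reduced folate carrier Slc19a1 at 55 ± 30.7 and 48 ± 13.1, while Folr2 stayed at 2 reads or fewer. Named after their values were seen, Hyal2, a hyaluronidase, was read 1323, 3 and 590 times in the wild-type libraries and 2, 737 and 1396 times in the knockout libraries, the hyaluronan receptor Cd44 had 2068 reads in wild-type library 2, 292 and 81 in knockout libraries 2 and 3 and at most 1 in the others, and Fpgs, which retains folates in the cell, had 0 reads in wild-type library 2 and knockout library 1 and 1186 in knockout library 3.

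Of 9 endocytic partners of Dab2, 7 were tested and 0 called, 1 had an unadjusted p under 0.05, and the median log2 fold change was 1.02 against -0.03 over all genes tested. Cltc, the clathrin heavy chain, was at 63.4, 45.5 and 209 CPM in wild-type libraries 1 to 3 and at 302, 444 and 297 CPM in knockout libraries 1 to 3, with no overlap. Its unadjusted p was 0.0217 and its edgeR adjusted p = 0.9999. The adaptor subunit Ap2a1 was at 50.8 ± 26.6 and 42.5 ± 25.7 CPM. Ap2b1, named after its values were seen, averaged 32 ± 7.3 and 15.7 ± 10.7 CPM, lower in knockout with no overlap. Of the 7 tested partners, 5 had a positive and 2 a negative log2 fold change. Over all genes tested, 2.84% had an unadjusted p under 0.05 in edgeR and 11.2% had no overlap. Of 8 carbonyl reductases and transglutaminases, 5 were tested and 0 called. Cbr1, the relative of Cbr2, was at 105 ± 46 and 83.4 ± 30.5 CPM, and Tgm2, the tissue relative of F13a1, at 115 ± 109 and 79.4 ± 34.9. Dcxr, the most abundant of the list, averaged 144 ± 94.3 and 53.8 ± 18.9 CPM, with no overlap (edgeR adjusted p = 0.9999). Cbr4, named after its values were seen, averaged 6.55 ± 9.97 and 52.4 ± 45.3 CPM, with no overlap in the other direction (edgeR adjusted p = 0.9999).

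MHC class II genes mark one subset of border-associated macrophages. Of 7 such genes 5 were tested and 0 called, and the summed level was 567 to 774 CPM in wild type and 491 to 650 in knockout. Most of that sum came from H2-DMa and H2-DMb1, with means of 324 and 178 CPM over all libraries. The chain genes H2-Ab1, H2-Aa and H2-Eb1 had means of 19.4, 3.85 and 1.76 CPM. Cd74, the invariant chain, was read 1602, 2309 and 1910 times in the wild-type libraries and 9, 431 and 1570 times in the knockout libraries, with levels that did not overlap (edgeR adjusted p = 0.9999). The class II chain genes, named after their values were seen, had overlapping levels or did not pass the filter on low counts. H2-Ab1 averaged 11.3 ± 11.8 and 27.4 ± 11.8 CPM (log2 fold change 1.28), and H2-Eb1 1.03 ± 0.957 and 2.48 ± 4.2 CPM (1.26). H2-Aa, which was not tested, had 351 and 143 reads in knockout libraries 2 and 3 and at most 5 in the others. H2-DMa, a peptide-loading chaperone, was at 334 ± 61.3 and 315 ± 67.6 CPM. Knockout library 1, with 9 reads of Cd74, was also among those with few reads of Mrc1 and Dab2, whereas wild-type library 2, with 8 and 7 reads of Mrc1 and Dab2, had 2309 of Cd74.

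Lists of cell types that could share members of the panel were read beside it. Lyve1 and Dab2 are also known from endothelium, whose list summed to 183, 29.1 and 51.9 CPM in wild-type libraries 1 to 3 and 27.1, 86.9 and 43.6 CPM in knockout libraries 1 to 3. Of its 11 genes 7 never had more than 3 reads, with the defining genes Cldn5 and Ly6c1 at 0 in all 6 libraries. Pecam1, which macrophages also carry, was the most abundant at 25.9 to 153 CPM, highest in wild-type library 1, which also had the most Mrc1. Named after their values were seen, the VEGF receptor Kdr was read 292, 61 and 206 times in the wild-type libraries and 0, 0 and 190 times in the knockout libraries, and Prox1, a factor of lymphatic endothelium, had 501 reads in knockout library 2, which had the most Dab2, and at most 98 elsewhere. In knockout library 2, however, Flt4 of the same list had 1 read, and Cdh5 and Lyve1 had 0. Clec12a and F13a1 are also known from monocytes, whose list summed to 0.949 to 4.68 CPM in wild type and 0.354 to 22.1 CPM in knockout. Colec12 and Dab2 are also known from fibroblasts, whose list summed to 0.0395 to 5.17 and 0.172 to 0.404 CPM. In choroid plexus epithelium, the neighbour of 1 type of border-associated macrophage, the summed levels were 0 to 0.284 and 0 to 9.19 CPM. The part of these cells in the Mrc1, Dab2 and Ms4a7 values was not tested.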

How the data were processed

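The authors deposited raw counts of reads per gene symbol for 3 wild-type and 3 Lyl1 knockout libraries. Per the submitters' processing notes, STAR 2.5.2b, featureCounts 1.5.1, limma 3.28.21 and GRCm38 were used, with no role given. The sources used here do not give the annotation or the strand setting. Per the labels' protocols, cDNA was made with a SMARTer kit that does not mark strand and amplified over 14 or 15 cycles, so PCR copies are counted as reads. The 92 ERCC entries were left out. Genes passing filterByExpr (minimum count 10, minimum total 15) were tested with edgeR 4.0.16 (TMM scaling, quasi-likelihood F test, 2-sided, Benjamini-Hochberg over 10394 genes, threshold 0.05) in R 4.3.3. DESeq2 1.42.0 and limma-voom 3.58.1 were alternatives. CPM are TMM-scaled. Gene positions and exon lengths are those of GENCODE M21 on GRCm38. The labels do not say whether the replicate numbers pair the samples, and the main fit used no pairing.

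The members and lists were chosen with earlier results of these data known. The named genes are Lyl1, the 10 members, the 6 most abundant of the further list, the 3 most abundant of each list of relatives, MHC class II, microglia and pan-macrophage genes, the most abundant of each other cell type list, and the 5 nearest profiles. Not all of them are described.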

Additional observations from a re-analysis of the deposited data

How the results depend on the processing

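The number of genes called was 0 in edgeR under RLE, upper-quartile and library-size scaling, thinned counts, genes detected as a covariate, newer dispersions, limma-voom and without any 1 library. It was 8 with no filter on low counts, 52 with DESeq2 on the genes edgeR tested and 137 with DESeq2 on all genes with a read. Mrc1 and Dab2 were in none of these. Under upper-quartile scaling the median of all genes' log2 fold changes moved by 0.12. Of the 10 markers 3 had more than 3 reads in a library, 3 had more than 10 and 9 had at least 1, and 2 to 3 had more than 3 when any 1 library was left out, the 2 without wild-type library 3. The summed level's log2 ratio ran from -1.17 to 0.22 over leaving out each library. With a replicate block 0 genes were called, Mrc1 was at -2.15 and Dab2 at 0.92. Same-numbered libraries of the genotypes deviated with correlations of 0.014, -0.003 and 0.033 over 10394 genes, and differently numbered ones with -0.037 to 0.014. Values this small cannot decide whether the numbers pair the samples. The thresholds on reads and the newer dispersions were chosen after seeing the data.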

Other observations

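Some libraries also held reads of genes listed for other cell types, named here after their values were seen. Which cells these reads came from was not tested. Of 21254 protein-coding genes, 394 (1.85%) had at least 100 reads in 1 library and at most 3 in each other. The cross-presenting dendritic cell genes Xcr1 and Clec9a had 1251 and 413 reads in wild-type library 2, the library with the lowest summed level of border-associated macrophage markers. In the other 5 libraries Xcr1 had at most 50 reads and Clec9a had 0. Of the other genes of that 7-gene list, Flt3 had 259 reads in wild-type library 2 and at most 67 elsewhere, Zbtb46 had 0 there but 261 and 140 in wild-type libraries 1 and 3, Batf3 lay at 27.8 to 39.5 CPM in all libraries, and Ccr7 and Cd209a had 0 reads. The beta-globin gene Hbb-bs had 2892 and 752 reads in knockout libraries 1 and 2 and at most 8 in the others. Kcnj13, a potassium channel of choroid plexus epithelium, had 198 reads in knockout library 1 and 0 elsewhere. Ttr, the main transcript of that epithelium, had 0 reads in knockout library 1.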
